A study of Mus musculus with 26 samples.

Results

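The genes described here are the ABC transporter genes of the mouse, taken as every gene whose symbol starts with Abca, Abcb, Abcc, Abcd, Abce, Abcf or Abcg followed by a digit. The arrays held 87 probes for 49 such genes, among 18378 genes with a symbol. Subfamily A had 15 genes, B and C had 10 each, D had 4, E had 1, F had 3 and G had 6. For 28 genes there were several probes, and the probe with the highest mean over all arrays stood for the gene. Abca16 is listed in RefSeq but was not matched to a probe. RNA came from the EML line, blood progenitors of the mouse that need stem cell factor and that carry a dominant-negative retinoic acid receptor in every group. Cultures held horse serum and medium conditioned with stem cell factor, sorting used Sca1, CD34 and cKit, and 26 one-colour arrays in 3 sets measured them. Sca1hi, CR Sca1lo and EryCP made up the first set (3 arrays per fraction). The second set compared Ediff, cells negative for CD34 and cKit that erythropoietin (Epo) had driven to differentiate from EryCP, with a repeat of EryCP itself (3 arrays per group, the latter called EryCP repeat). In the third set, CD34+ CD103- and CD34- CD103- fractions had 4 arrays per group, and the CD34- CD103- fraction after culture with Epo to differentiate it, called CD34- CD103- Epo, had 3. Sample titles read EML in the first and second sets and EMLe2 in the third, and the titles do not say what EMLe2 stands for. No source used here states how much Epo was given or for how long. The labels do not say whether a group's arrays stand for separate cultures, so p-values measure only the spread between these samples, which may be technical.

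ABC proteins carry ATP-binding cassettes, and most of them use ATP to move a substrate across a membrane. Members of the mitochondrial group (such as Abcb6, Abcb8 and Abcb10) are tied to heme and iron-sulfur metabolism, while P-glycoproteins and the Abcc and Abcg2 pumps carry drugs, conjugates and nucleotides out of cells, and Abca1 and Abcg1 carry cholesterol and phospholipid to lipoproteins. Haematopoietic stem cells are known for efflux of fluorescent dyes through such pumps, and developing red cells for a high demand for mitochondrial heme transport. Abce1 and the Abcf proteins have no membrane domain and act in translation.

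The mitochondrial genes Abcb6 and Abcb10 and the chromosome 5 genes Abcb1a, Abcb1b and Abcb4 gave some of the largest differences below or, for Abcb1a, none that could be measured. Their promoters are shown for that reason. The RefSeq promoter table of the mouse assembly GRCm38.p6 held 44 promoters for 37 of the 49 genes. Each sequence holds the 250 bases before the transcript start of that table, 5′ to 3′ on the strand of the gene. For Abcb4 the gene in RefSeq starts earlier, at chr5:8893614, so the last part of its window lies within the gene. Capitals mark matches on either strand to CACCC, the core bound by Kruppel-like factors, and to CCAAT. The hexamers of the GATA factor core (AGATAA or AGATAG as written first, TGATAA or TGATAG with the other first base) were searched on both strands too and did not occur in these windows. No base of the promoters shown lay in more than 1 match.
Abcb6, chr1:75180393-75180642, minus strand: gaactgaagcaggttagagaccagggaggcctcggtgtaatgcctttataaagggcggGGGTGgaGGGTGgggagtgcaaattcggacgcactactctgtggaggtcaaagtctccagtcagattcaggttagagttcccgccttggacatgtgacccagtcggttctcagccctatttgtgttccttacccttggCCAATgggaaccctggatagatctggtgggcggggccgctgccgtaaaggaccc
Abcb10, chr8:123983123-123983372, minus strand: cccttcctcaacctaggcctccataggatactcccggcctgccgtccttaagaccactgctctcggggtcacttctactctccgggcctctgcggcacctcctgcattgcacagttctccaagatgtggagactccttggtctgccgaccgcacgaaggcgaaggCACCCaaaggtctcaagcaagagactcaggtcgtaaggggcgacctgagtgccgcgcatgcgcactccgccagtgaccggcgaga
Abcb1a, chr5:8566841-8567090, plus strand: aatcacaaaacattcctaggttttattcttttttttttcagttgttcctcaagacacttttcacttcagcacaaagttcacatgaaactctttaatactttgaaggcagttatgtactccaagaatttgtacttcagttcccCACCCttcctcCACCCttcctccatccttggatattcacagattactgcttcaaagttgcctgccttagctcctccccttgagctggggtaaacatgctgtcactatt
Abcb1b, chr5:8797897-8798146, plus strand: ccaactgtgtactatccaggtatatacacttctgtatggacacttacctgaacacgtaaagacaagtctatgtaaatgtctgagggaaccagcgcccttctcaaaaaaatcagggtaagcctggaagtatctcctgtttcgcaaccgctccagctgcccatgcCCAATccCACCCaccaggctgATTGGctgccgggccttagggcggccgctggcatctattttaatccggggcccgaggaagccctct
Abcb4, chr5:8893471-8893720, plus strand: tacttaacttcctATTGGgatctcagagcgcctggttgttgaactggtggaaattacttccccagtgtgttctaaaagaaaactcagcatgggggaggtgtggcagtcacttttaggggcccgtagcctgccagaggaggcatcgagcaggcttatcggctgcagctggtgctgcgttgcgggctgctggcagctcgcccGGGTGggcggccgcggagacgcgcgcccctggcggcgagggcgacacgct

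Among all 44 ABC promoters, 28 (63.6%) held CACCC, against 52% of the 32851 promoters in the table. CCAAT was found in 12 ABC promoters (27.3%, against 33.8% of all) and a GATA hexamer in 9 (20.5%, against 26.5%). These shares describe letters only. The promoter of Abcb1a held 40.4% G and C, that of Abcb1b 52.8%, and those of Abcb4 and Abcb10 61.6% each.

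Levels are given as log2 of the processed signal relative to the 75th percentile of the same array, so that 0 is the 75th percentile. A level belongs to its probe, and levels of different genes are not set against each other. That percentile lay between 425.3 and 1247 intensity units, and between 76% and 93.8% of the probes of an array were well above background. Within groups, the correlation between arrays ran from 0.9677 to 0.9932. Marker genes moved with the groups: the summed linear level of 8 mast cell and basophil markers was 217 to 326 in Sca1hi, 178 to 251 in CR Sca1lo, 748 to 1060 in EryCP, 919 to 1040 in EryCP repeat, 17.6 to 23.8 in Ediff, 267 to 311 in CD34+ CD103-, 865 to 913 in CD34- CD103- and 409 to 418 in CD34- CD103- Epo. Of 9 erythroid markers the sum was 871 to 889 in Ediff, against 43.1 to 54.3 in EryCP repeat, 13.7 to 16.1 in CR Sca1lo and 23.5 to 28.3 in EryCP. The sum of 6 neutrophil markers was 227 to 312 in Sca1hi, 299 to 443 in CR Sca1lo, 54.4 to 90.2 in EryCP and 0.563 to 0.714 in Ediff. In the first set it followed mostly Mpo, with means of 8.1 in Sca1hi, 8.56 in CR Sca1lo and 5.95 in EryCP. S100a9, at -2.45, -1.01 and 3.48, and S100a8, at -7.39, -4.57 and -0.33, went the other way. Of the 6 markers 2 were called higher and 1 lower in EryCP against each fraction. Cd34, Meis1 and Hoxa9 were above background on no Ediff array, while the probes of Cd34 and of Itgae, which encodes CD103, were above background on every array of CD34- CD103- and CD34- CD103- Epo. In these bulk samples fewer cells of a type and less RNA per cell cannot be told apart.

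Most ABC genes gave a signal in every fraction. A gene was counted as detected in a group when its probe was well above background on every array of it where it was measured. This held for 43 of 49 in Sca1hi, 45 in CR Sca1lo, 43 in EryCP, 41 in EryCP repeat, 41 in Ediff, 43 in CD34+ CD103-, 40 in CD34- CD103- and 40 in CD34- CD103- Epo. These are 81.6% to 91.8% of the ABC genes, beside 72.9% to 82.7% of all genes. In CD34- CD103- the shares were close, at 81.6% and 81.4%, and in CD34- CD103- Epo that of the ABC genes was the lower, at 81.6% and 82%. In all 8 groups 36 genes were detected, of which Abcc5 was measured on 2 of the 3 CD34- CD103- Epo arrays. Another 9 were detected in some: Abca4, Abca9, Abcb11, Abcc9 and Abcc12 in 7 groups, Abca13 in 6, Abca12 in 3, and Abcd2 and Abcg3 in 2. The remaining 4, Abca15, Abcb1a, Abcb5 and Abcc10, were above background on 1 to 5 arrays of 26 and on every array of no group. They were therefore not tested, and no difference is given for them.

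The P-glycoprotein genes split by detection. Abcb1a, which encodes a multidrug pump of blood-brain barrier and gut, was above background on 1 array, the first of CD34+ CD103-, at -3.12, while the other 25 lay between -8.79 and -7.01. Its close paralog Abcb1b was above background on all 26 arrays. Abcg2, the pump behind the side population of stem cells, was also above background on all 26, with group means from -4.08 ± 0.49 in EryCP repeat to -2.53 ± 0.63 in Sca1hi (SD, n = 3 each), but was called in no comparison.

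The comparison of CR Sca1lo with Sca1hi asks which ABC genes differ between cells with low and with high Sca1. Abcg1 was higher in CR Sca1lo, while the neighbours Abcb1b and Abcb4 were lower, and Abcc5 was lower too. The retinal transporter gene Abca4 was higher. Of 45 genes tested 5 were called at a limma adjusted p under 0.05, 2 higher and 3 lower, which is 11.1% beside 3.63% of the 26451 genes tested (1.23% higher and 2.4% lower). Here and below, counts over all genes include probes without a symbol, each as 1 gene. The arrays of the groups did not overlap for 10 ABC genes, beside 18.7% of all genes. The median difference was 0.03 over the ABC genes and 0.03 over all genes.

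Abcg1, which moves cholesterol to HDL, lay at -1.33, -1.56 and -1.74 in Sca1hi and at 0.57, 0.61 and 0.25 in CR Sca1lo. All CR Sca1lo arrays were above all Sca1hi arrays, by 2.02 (SE 0.19, 4.07-fold, adjusted p = 0.00105). Abcb1b lay at 1.28, 1.33 and 0.89 in Sca1hi and at -0.22, -0.41 and -0.23 in CR Sca1lo, a difference of -1.45 (SE 0.17, adjusted p = 0.00322). Abcb4, which flips phosphatidylcholine, lay at 0.84, 1.01 and 0.69 in Sca1hi and at -0.38, -0.67 and -0.43 in CR Sca1lo, a difference of -1.34 (SE 0.15, adjusted p = 0.00261). For both genes the Sca1hi arrays stood apart above the rest, and the other probes of Abcb1b gave -1.14, which was called, and -0.82, which was not. Abcc5, a pump of cyclic nucleotides, lay at 0.66, 0.7 and 0.7 in Sca1hi and at -0.19, -0.3 and -0.15 in CR Sca1lo, a difference of -0.9 (SE 0.13, adjusted p = 0.0088). Abca4 lay between -2.59 and -2.51 in Sca1hi and between -2.02 and -1.68 in CR Sca1lo, a difference of 0.72 (SE 0.15, adjusted p = 0.0347).

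The other genes followed by name did not pass the test here, in the fit without slide as a block. Among mitochondrial genes, Abcb6 differed by -0.76 (adjusted p = 0.0517), Abcb8 by 0.44 and Abcb10 by 0.09. Among efflux genes, Abcg2 differed by -0.32, Abcc1 by -0.12, Abcc4 by 0.09 and Abcc3 by -0.03. Abca1 differed by 0.03, Abce1 by 0.2 and Abcf1 by 0.02. Abcg1, Abcb1b and Abcb4 kept their calls in each of the 9 fits without 1 array, Abcc5 in 6 (highest adjusted p = 0.0632) and Abca4 in 1 (highest adjusted p = 0.167). With normexp background correction limma called 0 of the 5 (4 of 45 ABC genes had an unadjusted p under 0.05), and with spike-in scaling only Abcg1. Over all genes these settings called 0.00756% and 0.525%, beside 3.63% in the main fit, so that most calls of any gene were lost.

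Of 14 glutathione and drug response genes 4 were lower and 0 higher, led by Gstm1 (-2.64), Hmox1 (-1.47) and Nqo1 (-0.97), which encode a glutathione transferase, a heme oxygenase and a quinone reductase. Of 18 sterol genes, Npc1 was lower by 0.87 and the other 17 were not called. Of the 19 heme and mitochondrial iron genes, the 12 peroxisome genes and the 12 ribosome recycling genes 0 were called by limma.

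EryCP was compared with CR Sca1lo and with Sca1hi to describe the fraction that gives rise to erythroid cells. Abca4 was much lower in EryCP than in both, and Abcb10 was higher than in both. Abcg1 lay between them, lower than in CR Sca1lo and higher than in Sca1hi. Abcb1b and Abcb4 were lower than in Sca1hi, at about their level in CR Sca1lo. Against CR Sca1lo 4 of 45 ABC genes were called, 1 higher and 3 lower (8.89% beside 5.01% of all genes, 2.74% higher and 2.26% lower). Against Sca1hi 6 were called, 2 higher and 4 lower (13.3% beside 6.45%, 3.16% higher and 3.29% lower). Arrays did not overlap for 13 ABC genes in each comparison, beside 18.1% and 19% of all genes. The medians were -0.11 and -0.05 over the ABC genes and -0.07 and -0.03 over all genes.

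Abcb10, the mitochondrial inner membrane transporter needed for heme synthesis, lay at 0.85, 0.6 and 0.79 in EryCP. In CR Sca1lo it lay at -0.08, -0.14 and -0.33 and in Sca1hi at -0.21, -0.17 and -0.43. All EryCP arrays were above the others, by 0.93 (SE 0.15, adjusted p = 0.0097) and 1.02 (SE 0.15, adjusted p = 0.00522). Abca4 lay at -5.79, -5.66 and -5.55 in EryCP, where its probe was well above background on 2 of 3 arrays. The differences were -3.84 from CR Sca1lo (SE 0.15, adjusted p = 1.18e-05) and -3.11 from Sca1hi (SE 0.15, adjusted p = 1.67e-05). They were -2.35 and -1.73 in the authors' deposited value table, where limma called both, and -2.41 and -2.22 with normexp correction, where neither was called. The groups did not overlap for either gene.

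Abcg1 lay at -0.46, -0.9 and -0.52 in EryCP, a difference of -1.11 from CR Sca1lo (SE 0.19, adjusted p = 0.0126) and of 0.92 from Sca1hi (SE 0.19, adjusted p = 0.0264). Abcb1b lay at -0.58, -0.6 and -0.29 and differed from Sca1hi by -1.66 (SE 0.17, adjusted p = 0.000829). Abcb4 lay at -0.71, -0.61 and -0.52 and differed from Sca1hi by -1.46 (SE 0.15, adjusted p = 0.000829). From CR Sca1lo these neighbours differed by -0.2 and -0.12, within the spread of the arrays. Abcc5 was lower than in Sca1hi by 0.75 (adjusted p = 0.0124), and Abcc4, a pump of cyclic nucleotides and prostaglandins, lower than in CR Sca1lo by 0.66 (adjusted p = 0.035). The probe that stands for Abca3 was not called, with means of -3.32 in EryCP, -3.69 in CR Sca1lo and -3.51 in Sca1hi. Another probe of Abca3 lay at -4.03, -4.07 and -4.12 in EryCP and at -4.81, -6.74 and -7.74 in CR Sca1lo. In Sca1hi it lay at -6.69, -6.63 and -6.65, not well above background. On the remaining probe the arrays of EryCP and Sca1hi overlapped.

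**Figure D1:**
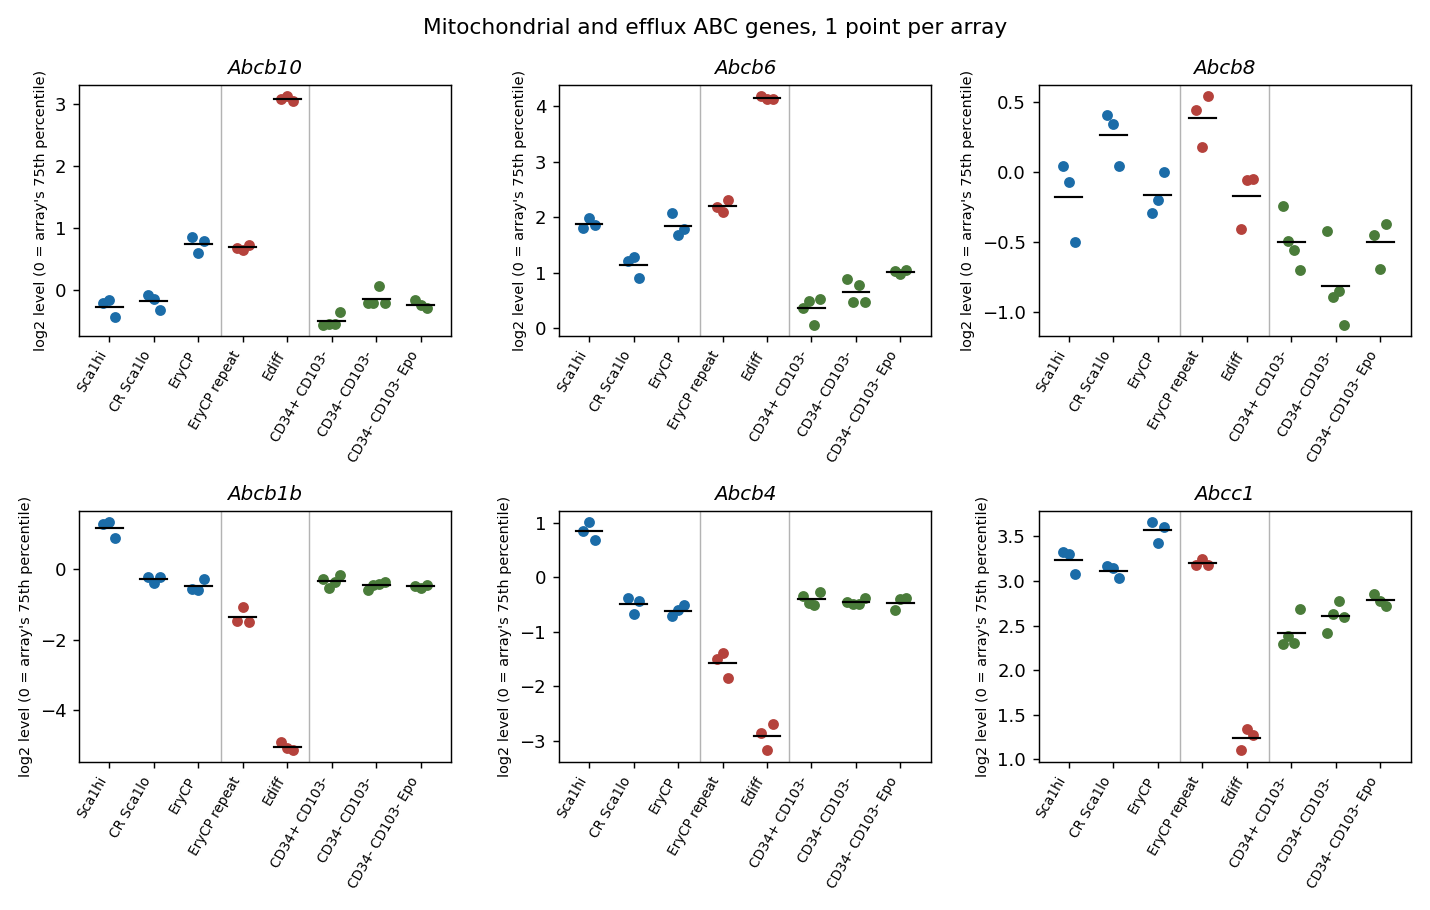
Log2 level of 6 ABC genes on each array, with 0 at the array's 75th percentile. Columns are the 8 groups, vertical lines part the 3 array sets, points are arrays and black bars are group means. Abcb10 and Abcb6 stand highest in Ediff within their set, and Abcb1b, Abcb4 and Abcc1 lowest.

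Of the genes followed by name, Abcb6 differed by 0.72 from CR Sca1lo (adjusted p = 0.0526) and by -0.04 from Sca1hi, and Abcb8 by -0.42 and 0.01. Abcc1 differed by 0.45 and 0.33, Abcc3 by 0.05 and 0.03, and Abcg2 by 0.28 and -0.04. Abca1 differed by 0.65 and 0.68, Abce1 by -0.29 and -0.09, and Abcf1 by -0.11 and -0.09. Abcc4 differed from Sca1hi by -0.58 (adjusted p = 0.0536). None of these passed the test in the fit without slide as a block.

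Against Sca1hi, Abca4, Abcb10, Abcb1b and Abcb4 kept their calls in each of the 9 fits without 1 array, Abcc5 in 5 and Abcg1 in 3 (highest adjusted p = 0.0744 and 0.119). Against CR Sca1lo Abca4 did so, while Abcb10 lost its call without EryCP replicate 1 (adjusted p = 0.0537), Abcg1 without CR Sca1lo replicate 1 or 2 (highest adjusted p = 0.0716) and Abcc4 in each of 9 fits (highest adjusted p = 0.157). Normexp correction left 0 calls by limma in both comparisons (5 and 4 genes had an unadjusted p under 0.05), and spike-in scaling left Abca4 against CR Sca1lo and Abca4 and Abcb1b against Sca1hi. Over all genes, 0.276% and 0.37% were called with normexp correction and 1.48% and 2.09% with spike-in scaling. With slide as a block, 13, 18 and 15 ABC genes were called in the 3 comparisons of this set, beside 17.9%, 20.2% and 20.9% of all genes, and all calls without the block were among them.

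Of 19 heme and mitochondrial iron genes, 4 were higher and 0 lower in EryCP against each fraction (list medians 0.43 and 0.35): Alas2 by 2.75 and 2.96, Alad by 1.16 and 1.53, and Cpox by 1.03 and 1.11, which encode enzymes of heme synthesis, with Ppox by 0.73 and 0.57. Of 18 sterol genes Npc2 was lower by 1.8 than in CR Sca1lo, and Npc2 (-1.89), Npc1 (-0.88) and Apoe (0.74) differed from Sca1hi. Of 14 glutathione and drug response genes Gstm1 was lower by 1.17 than in CR Sca1lo, and Gstm1 (-3.82) and Gclc (-1) were lower than in Sca1hi. No peroxisome or ribosome recycling gene of 12 each was called by limma. The summed mast cell marker level, given above, rose in EryCP, with 7 of 8 markers higher against each fraction, and its part in these differences was not tested.

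The comparison of Ediff with EryCP repeat describes ABC genes in cells that had differentiated under Epo. Abcb10 and Abcb6 of mitochondria rose, together with Abcg4, Abcc5, Abca3, Abca4, Abcb9 and Abca9. Abcb1b, Abca2, Abcc1, Abca1 and Abcb4 fell the most, with Abcd3, Abcc2, Abcb8 and Abcd4. Of 41 ABC genes tested 27 were called, 18 higher and 9 lower, which is 65.9% beside 56.6% of the 24671 genes tested (39.6% higher and 17% lower), so that the share lay near that of all genes. Arrays did not overlap for 31 ABC genes, beside 63.3% of all genes, and with slide as a block 28 were called beside 66.9%. The median difference was 0.49 over the ABC genes and 0.45 over all genes, and that shift of all genes was 0.19 with quantile normalization, 0.1 in the deposited value table and -0.58 with spike-in scaling. Against the shift, 17 called genes lay above the median of all genes and 10 below it. Of the 18 genes called higher, the 8 named here are those that kept their sign under 4 scalings. The other genes called higher changed sign in at least 1 of them. All 9 genes called lower kept their sign, and every gene named here but Abca9 kept its call. The 4 scalings were the main centring, quantile normalization, spike-in scaling and the deposited value table. With normexp correction the signs of Abca1 and Abcc2 turned, and only Abca2 stayed called, where 0.969% of all genes were called.

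Among mitochondrial genes, Abcb10 lay at 0.68, 0.64 and 0.73 in EryCP repeat and at 3.07, 3.12 and 3.05 in Ediff. The Ediff arrays were all above the others, and the difference was 2.39 (SE 0.08, adjusted p = 7.38e-06), or 1.94 above the median of all genes. Abcb6, a porphyrin transporter, lay at 2.18, 2.09 and 2.31 and at 4.18, 4.14 and 4.13, a difference of 1.95 (SE 0.1, adjusted p = 2.53e-05). Abcb8, which acts in iron export from mitochondria, was lower by 0.56 (adjusted p = 0.0231), with the call kept in 3 of 6 fits without 1 array.

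Most of their partners in heme synthesis and mitochondrial iron rose too. Of 19, 16 were higher and 1 lower, with a median of 2.31. Alas2, the first enzyme of erythroid heme synthesis, was higher by 7.15, Slc25a37, the mitochondrial iron importer, by 4.16 and Cpox by 3.63. Fdx1, a mitochondrial ferredoxin, was lower by 1.52.

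Among efflux genes, Abcb1b lay at -1.46, -1.08 and -1.5 in EryCP repeat and at -4.89, -5.07 and -5.14 in Ediff, still above background there. The difference was -3.69 (SE 0.15, adjusted p = 1.16e-05), but its second probe, at -2.45, -2.26 and -2.87 against -2.57, -3.31 and -2.8, gave -0.37 and the other -0.26, and neither was called. Under the highest mean within this set the second probe would stand for the gene. Abcb1a and Abcb1b are close paralogs, and probe sequences were not used here to ask which copy each probe binds. Abcc1, a glutathione-conjugate pump, lay at 3.18, 3.25 and 3.18 and fell to 1.1, 1.34 and 1.27, a difference of -1.97 (SE 0.1, adjusted p = 3.01e-05), with -1.85 and -1.82 on its other probes. Abcc5 rose from 0.55, 0.56 and 0.78 to 2.59, 2.95 and 2.8, by 2.15 (SE 0.13, adjusted p = 6.23e-05), with 2.22 and 2.25 on its other probes.

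Abcc2, a pump of bile conjugates, was lower by 0.89 (adjusted p = 0.0015). Abcc4, Abcc3 and Abcc12 were higher by 1.02, 0.93 and 0.89, and with spike-in scaling these became -0.01, -0.1 and -0.14. Abcg2 differed by 0.81 (SE 0.4, adjusted p = 0.13). Of 13 glutathione and drug response genes tested 4 were higher and 5 lower, led by Hif1a (-2.13), Gss (1.71) and Gclc (1.1), which encode a hypoxia factor and 2 enzymes of glutathione synthesis.

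Lipid genes moved both ways. Abca2, an endolysosomal lipid transporter, lay at 3.44, 3.14 and 3.22 in EryCP repeat and at 0.47, 0.45 and 0.59 in Ediff, a difference of -2.76 (SE 0.11, adjusted p = 1.32e-05), with -2.51 on its other probe. Abca1, the cholesterol exporter to lipid-poor apolipoprotein, fell from between -2.49 and -2.35 to -3.97, -4.69 and -3.94, by 1.78 on the log2 scale (SE 0.22, adjusted p = 0.00105). Abcb4 fell from -1.5, -1.39 and -1.85 to -2.86, -3.18 and -2.7, a difference of -1.33 (SE 0.18, adjusted p = 0.00162). Abcg4, a relative of Abcg1, rose from -2.09, -1.95 and -2.03 to 0.49, 0.02 and 0.18, by 2.25 (SE 0.14, adjusted p = 7.06e-05), while Abcg1 itself differed by -0.25 (adjusted p = 0.125). Abca3, the lamellar body lipid transporter, rose from -2.82, -2.82 and -2.26 to -0.83, -0.79 and -0.7, by 1.86 (SE 0.17, adjusted p = 0.000352), with 2.2 on another probe, which was called, and 1.29 on the remaining one, which was not. In no gene of this paragraph did the arrays of the groups overlap.

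**Figure D2:**
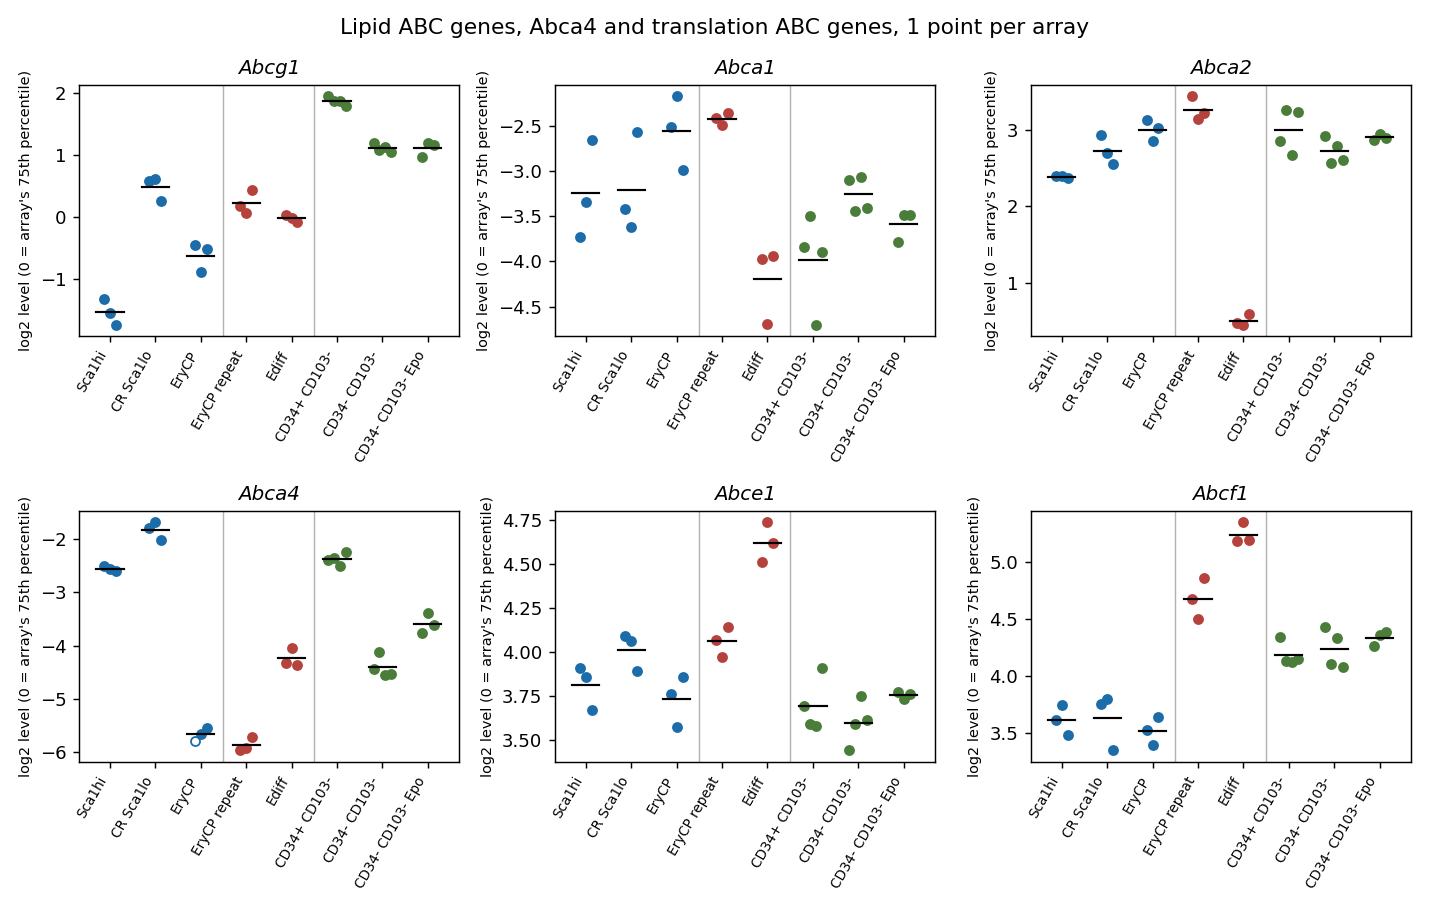
Log2 level of Abcg1, Abca1, Abca2, Abca4, Abce1 and Abcf1 on each array, with 0 at the array's 75th percentile. Columns are the 8 groups, vertical lines part the 3 sets, open points are arrays where the probe was not well above background and black bars are group means. Abca2 is lowest in Ediff, and Abca4 is lower in EryCP than in the other fractions of its set.

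Abcg8 and Abca7 were higher by 0.67 and 0.34, and with spike-in scaling they became -0.36 and -0.69. Of 18 sterol partners 7 were higher and 5 lower, led by Rxra (-1.54), Scarb1 (1.14) and Insig1 (1.09), which encode a nuclear receptor, an HDL receptor and a regulator of sterol synthesis. Among lysosomal and peroxisomal genes, Abcb9, a lysosomal peptide transporter, rose from between -0.56 and -0.53 to 1.09, 1.17 and 0.91, by 1.6 (SE 0.1, adjusted p = 6.98e-05). Abcd3, which imports fatty acids into peroxisomes, and Abcd4, which acts in lysosomal cobalamin export, were lower by 0.9 and 0.38, the latter at an adjusted p of 0.0498. Of 12 peroxisome partners 5 were higher and 4 lower, led by Pex13 (-1.19), Acot8 (1.11) and Scp2 (-0.95).

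The translation genes were called higher, close to the median of all genes. Abce1, which splits ribosomes, lay at 4.07, 3.97 and 4.14 in EryCP repeat and at 4.51, 4.74 and 4.62 in Ediff, a difference of 0.56 (adjusted p = 0.00569). Abcf1, which binds initiation factor eIF2, differed by 0.56 (adjusted p = 0.011), and Abcf2 and Abcf3 by 0.49 each. These 4 lay 0.11, 0.11, 0.04 and 0.04 above the median of all genes, and spike-in scaling turned them to -0.47, -0.47, -0.54 and -0.54. Of 12 ribosome recycling and initiation partners 8 were higher and 2 lower, led by Eif3j1 (1.47), Eif2ak4 (-1.1) and Eif2s2 (1.08).

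Abca4 rose from -5.97, -5.92 and -5.72 to -4.32, -4.05 and -4.36, by 1.63 (SE 0.13, adjusted p = 0.000171). This became 0.43 in the authors' deposited value table (limma adjusted p = 0.0405), 0.6 with spike-in scaling and 0.7 with normexp correction. Abca9 was higher by 1.51 (adjusted p = 0.00856, lost with spike-in scaling at 0.337) and Abca8a by 0.49, which became -0.54 with spike-in scaling. Of the 27 calls 21 were kept in each of the 6 fits without 1 array, and those lost in some were Abca7, Abca8a, Abcb8, Abcc3, Abcd4 and Abcf2 (highest adjusted p = 0.156). With normexp correction only Abca2 stayed called, at -2.54 (adjusted p = 0.0336), while Abcb10 gave 1.86 (adjusted p = 0.17) and Abcb1b -0.51. The share of all genes called fell there from 56.6% to 0.969%. Mast cell markers fell in 8 of 8 and erythroid markers, of which Alas2 is also a heme gene, rose in 9 of 9, and their part in the ABC differences was not tested.

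**Figure D3:**
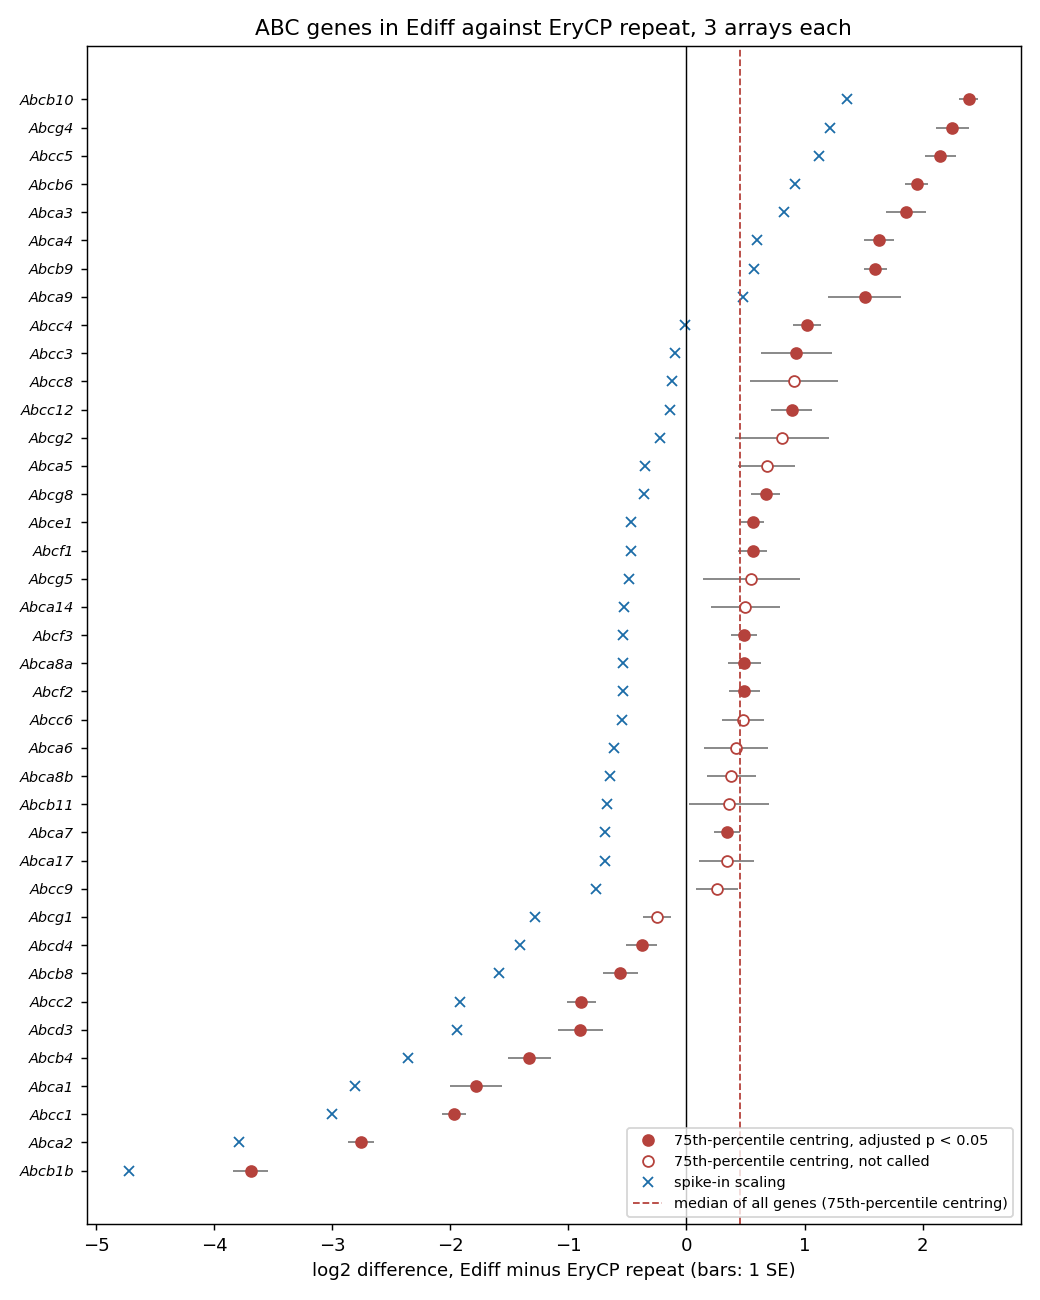
Log2 difference of Ediff minus EryCP repeat for 39 of the 41 ABC genes tested, with bars of 1 SE; filled circles were called, open ones were not, and crosses give the same difference under spike-in scaling. The dashed line marks the median of all genes at 0.45. Abcb10 and Abcb1b are at the ends, and many genes lie beside the dashed line.

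The comparison of CD34- CD103- with CD34+ CD103- asks what changes with loss of CD34 in cells labelled CD103-. In RNA, Cd34 had a mean of 5.05 in CD34- CD103- and 6.83 in CD34+ CD103-. Itgae, which encodes CD103, was called higher by 1.53 in CD34- CD103-. Abca4 and Abcg1 were lower in CD34- CD103-, while Abcb9, Abca3, Abcb10 and Abcc5 were higher. Abcf2, Abcd4 and Abcc4 were lower by smaller amounts. Of 43 ABC genes tested 10 were called, 4 higher and 6 lower, which is 23.3% beside 12.4% of the 27351 genes tested (5.65% higher and 6.76% lower). Arrays did not overlap for 11 ABC genes, beside 17% of all genes, and with slide as a block 13 were called beside 17.6%. The medians were -0.09 over the ABC genes and -0.06 over all genes, and with spike-in scaling that of all genes was -0.42.

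Abca4 lay at -2.39, -2.35, -2.5 and -2.24 in CD34+ CD103- and at -4.44, -4.13, -4.55 and -4.53 in CD34- CD103-. The groups were apart by -2.04 (SE 0.12, adjusted p = 1.29e-06). Abcg1 lay at 1.94, 1.86, 1.87 and 1.78 and at 1.18, 1.07, 1.12 and 1.05, a difference of -0.76 (SE 0.08, adjusted p = 7.61e-05). Abcb9 lay at -1.8, -1.44, -1.98 and -1.75 and at -0.84, -0.85, -0.88 and -1.02, a difference of 0.84 (SE 0.11, adjusted p = 0.000481). Abca3 lay between -4.51 and -4.2 and between -3.86 and -3.44, a difference of 0.75 (SE 0.11, adjusted p = 0.00106), with 2.87 on another probe, which was called, and 0.3 on the remaining one. In all of these the arrays of the groups did not overlap.

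Abcb10 was higher by 0.36 (SE 0.09, adjusted p = 0.0228) and Abcc5 by 0.32 (SE 0.08, adjusted p = 0.0316), and with spike-in scaling Abcc5 became -0.03. Abcf2 was lower by 0.43 (SE 0.12, adjusted p = 0.0344), Abcd4 by 0.37 (adjusted p = 0.0141) and Abcc4 by 0.3 (adjusted p = 0.0225). Among the genes that did not pass, Abca1 differed by 0.73 (adjusted p = 0.059), Abcb6 by 0.29 and Abcb8 by -0.31. Abcb1b differed by -0.12 and Abcb4 by -0.06, with overlapping arrays. Abcc1 differed by 0.19, Abcc3 by -0.09, Abcg2 by 0.18, Abce1 by -0.09 and Abcf1 by 0.05.

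**Figure D4:**
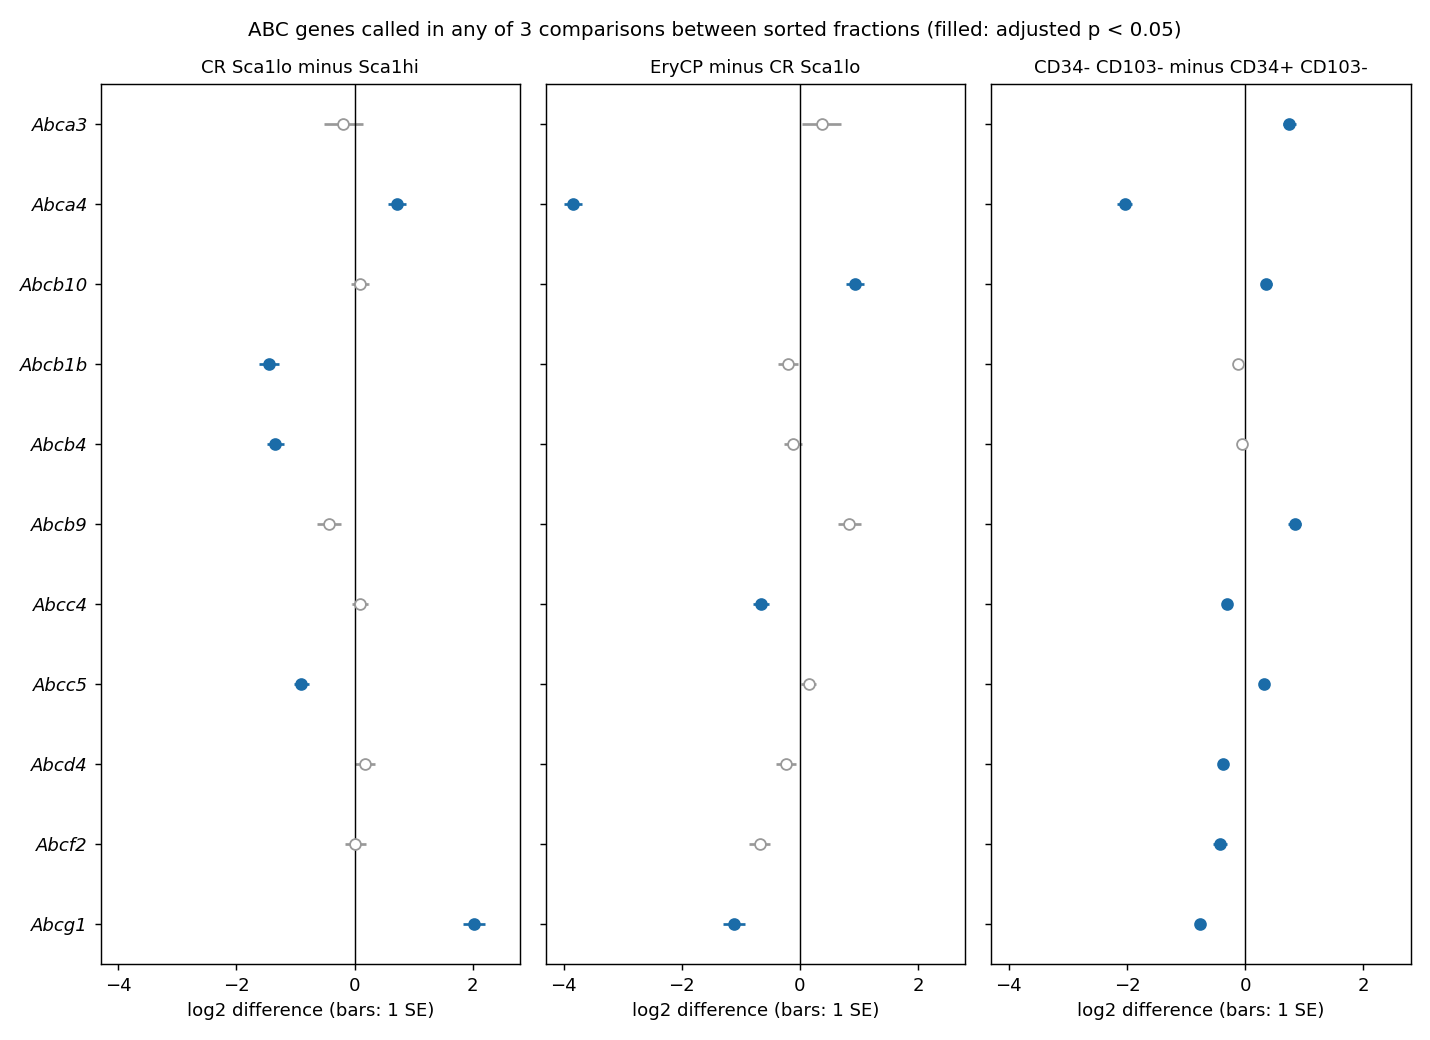
Log2 differences, with bars of 1 SE, of 11 ABC genes called in any of 3 comparisons between sorted fractions; filled points were called there and open ones were not. The panels show CR Sca1lo minus Sca1hi, EryCP minus CR Sca1lo and CD34- CD103- minus CD34+ CD103-. Abca4 is the gene farthest below 0 in the panels of EryCP and of CD34- CD103-, at -3.84 and -2.04.

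Abca3, Abca4, Abcb9, Abcd4 and Abcg1 kept their calls in each of the 11 fits without 1 array, Abcb10 in 8, Abcc4 in 6, Abcf2 in 3 of 11 and Abcc5 in 3 of 9 (highest adjusted p = 0.0986). Normexp correction ended the calls of Abca3, Abcd4 and Abcf2, and spike-in scaling those of Abca3, Abcb10 and Abcc5. With normexp correction 7 of 43 ABC genes were called, beside 9.07% of all genes. Under spike-in scaling 16 of 43 ABC genes were called, beside 37.3% of all genes. Of 19 heme and mitochondrial iron genes 8 were higher and 0 lower, led by Alas2 (1.22), Alad (1.06) and Cpox (0.86). Of 18 sterol genes 2 were higher and 3 lower, led by Npc2 (-1.07), Apoe (0.52) and Scap (-0.5). Gclc (-0.65) and Pex13 (-0.28) were the only called genes of the glutathione and peroxisome lists, and Pelo (-0.62), Gcn1 (-0.38) and Eif3j1 (-0.37) were lower among 12 ribosome recycling genes. Mast cell markers were higher in 7 of 8 and erythroid markers in 6 of 9 (median 2.21), 2 of 6 neutrophil markers (S100a9 by 4.7 and S100a8 by 4.2) were higher and 1 lower, and the part of these in the ABC differences was not tested.

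The comparison of CD34- CD103- Epo with CD34- CD103- asks what Epo changes in that fraction. Abca4 was higher with Epo, and it was the 1 gene called of 43 on the probes that stand for the genes (2.33% beside 2.54% of all genes, 0.654% higher and 1.89% lower). Arrays did not overlap for 6 ABC genes, beside 19.1% of all genes, and with slide as a block 1 was called beside 3.35%. Abca4 lay at -3.76, -3.38 and -3.62 with Epo, above all 4 arrays without it, by 0.83 (SE 0.13, adjusted p = 0.00581), and kept its call in each of 11 fits without 1 array. The probe that stands for Abca3 gave -0.18 and was not called. Another probe of Abca3 lay at -3.79, -3.83 and -3.82 with Epo and at -2.7, -2.37, -2.63 and -2.46 without it, a difference of -1.27 (SE 0.11, adjusted p = 0.000123), and the remaining one gave -0.13. Spike-in scaling left limma 0 calls (2 of 43 genes had an unadjusted p under 0.05), beside 0.731% of all genes. The median was 0.12 over the ABC genes and 0.08 over all genes.

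The genes that led the comparison of Ediff did not pass here. Abcb10 differed by -0.09 (SE 0.1), Abcb6 by 0.36 (SE 0.14, adjusted p = 0.22) and Abcb8 by 0.31. Abcb1b differed by -0.03 (SE 0.1) and Abcb4 by -0.01. Abcc1 differed by 0.18, Abcc3 by 0.13, Abcc4 by 0.17 and Abcg2 by 0.12. Abca1 differed by -0.33, Abcg1 by 0, Abce1 by 0.15 and Abcf1 by 0.1. Among partners, Slc25a37 (0.37) was higher of the heme list, Hmox1 (0.7) and Gclc (0.65) of the glutathione list, and Mylip (-0.68), a ubiquitin ligase for the LDL receptor, lower of the sterol list, while 0 of 12 genes of the peroxisome and of the ribosome recycling list were called by limma. Mast cell markers were lower in 7 of 8 and erythroid markers higher in 0 and lower in 1 of 9, and their part in the result was not tested.

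Against CD34+ CD103- cells, CD34- CD103- Epo cells had lower Abca4 and Abcg1 and higher Abcb6, Abca3 and Abcb9. Of 43 ABC genes 5 were called, 3 higher and 2 lower (11.6% beside 5.44% of all genes, 2.56% higher and 2.88% lower). Arrays did not overlap for 9 ABC genes, beside 18.6% of all genes, and with slide as a block 5 were called beside 7.65%. Abca4 differed by -1.22 (SE 0.13, adjusted p = 0.000334) and Abcg1, at 0.96, 1.19 and 1.15 with Epo, by -0.77 (SE 0.08, adjusted p = 0.000416). Abcb6 lay at 1.02, 0.97 and 1.05 with Epo and at 0.36, 0.48, 0.06 and 0.52 in CD34+ CD103-, a difference of 0.66 (SE 0.14, adjusted p = 0.0202). Abca3 differed by 0.57 (adjusted p = 0.019) and Abcb9 by 0.5 (adjusted p = 0.0355). Another probe of Abca3 gave 1.6 and was called. This comparison and the first of this set share their CD34+ CD103- arrays. Abca4 and Abcg1 kept their calls in each of 11 fits without 1 array, Abcb6 and Abca3 in 7 and Abcb9 in 3 (highest adjusted p = 0.136). Spike-in scaling ended the calls of Abca3, Abcb6 and Abcb9, and normexp correction those of Abca3 and Abcb9. Over all genes these settings called 6.63% and 3.16%.

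The remaining genes followed by name did not pass: Abcb10 differed by 0.27, Abcb8 by 0, Abcb1b by -0.14, Abcb4 by -0.07, Abcc1 by 0.37, Abcc3 by 0.04, Abcc4 by -0.14, Abcg2 by 0.29, Abca1 by 0.4, Abce1 by 0.06 and Abcf1 by 0.15. Of the heme list 6 of 19 were higher and 0 lower, led by Alad (0.93), Alas2 (0.91) and Cpox (0.77). Npc2 (-0.74) and Hmgcs1 (-0.53) were lower of the sterol list. Of 13 glutathione and drug response genes 4 were higher and 1 lower, led by Nqo1 (1.28), Hmox1 (1.1) and Gclm (0.89), and Cat (0.41), which encodes catalase, was the only called peroxisome gene. Mast cell markers were higher in 7 of 8 (median 2.96) and erythroid markers in 6 of 9 (median 1.69), and their part in the differences was not tested.

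The Epo responses themselves were set against each other as Ediff minus EryCP repeat less CD34- CD103- Epo minus CD34- CD103-. Abcb1b, Abca2 and Abcc1 had a lower response, and Abcb10, Abcc5 and Abcg4 a higher one, in EryCP than in CD34- CD103- cells. Of 42 ABC genes 21 were called, 12 with a higher and 9 with a lower difference, which is 50% beside 37.8% of all genes (23.5% higher and 14.3% lower), and with slide as a block 23 were called beside 47.1%. The median was 0.43 over the ABC genes and 0.37 over all genes. Each response lies within its own array set, and the starting population, the set and the EML or EMLe2 title cannot be told apart. Ediff cells were sorted as negative for CD34 and cKit, while the sources used here give no such sort for CD34- CD103- Epo cells.

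Abcb1b differed between the responses by -3.66 (SE 0.16, adjusted p = 1.07e-08), from -3.69 in Ediff and -0.03 in the CD34- CD103- cells, with -0.23 and -0.03 on its other probes, which were not called. Abca2 differed by -2.94 (SE 0.15, adjusted p = 4.25e-08) and Abcc1 by -2.15 (SE 0.14, adjusted p = 2.7e-07). Abcb10 differed by 2.49 (SE 0.12, adjusted p = 2.79e-08), from 2.39 and -0.09. Abcc5, for which 1 of the 3 CD34- CD103- Epo arrays was left out as an outlying spot, differed by 2.26 (SE 0.16, adjusted p = 1.43e-06). Abcg4 differed by 2.21 (SE 0.24, adjusted p = 1.89e-05), Abca3 by 2.04 (SE 0.21, adjusted p = 1.58e-05, with 3.47 on another probe, which was called, and 1.42 on the remaining one, which was not) and Abcb9 by 1.95 (SE 0.12, adjusted p = 1.68e-07).

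**Figure D5:**
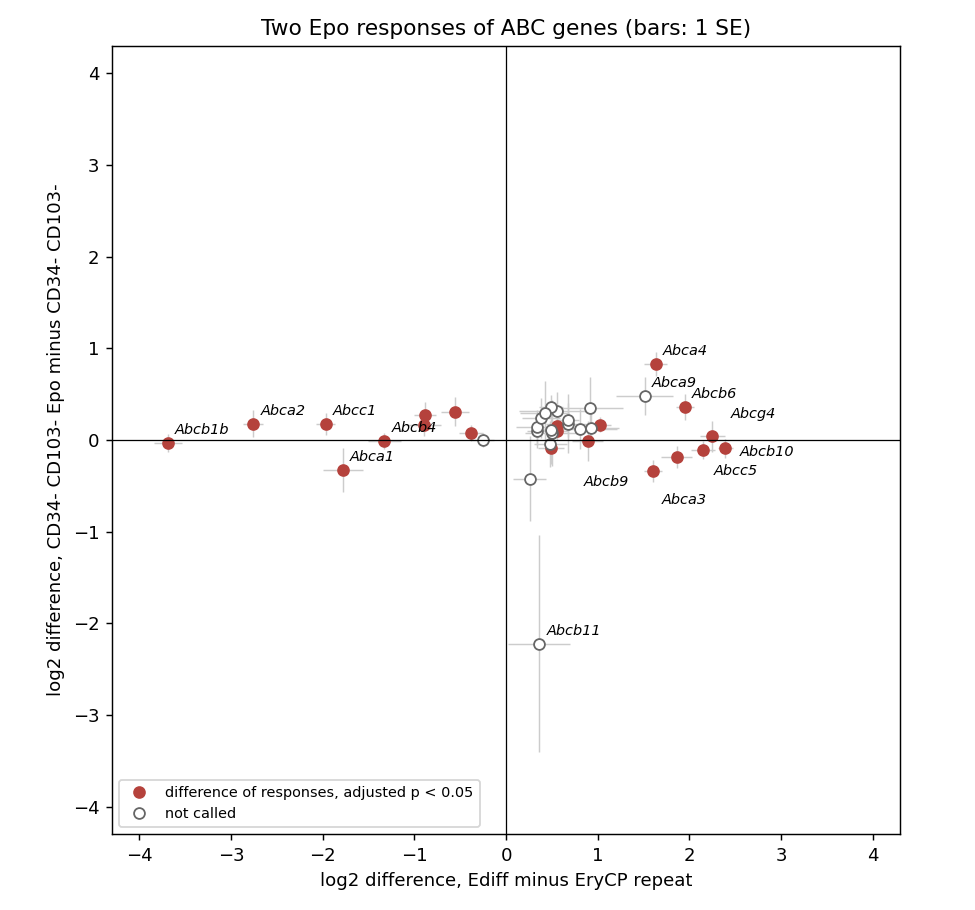
Log2 difference of Ediff minus EryCP repeat (x axis) against that of CD34- CD103- Epo minus CD34- CD103- (y axis) for 39 ABC genes, with bars of 1 SE; filled points had a called difference between the responses. The x axis runs from -3.69 for Abcb1b to 2.39 for Abcb10, while Abca4 has the highest y value at 0.83 and Abcb11, at -2.22 with an SE of 1.18, the lowest. That value of Abcb11 rests on 1 array with Epo at -8.09, not above background, beside the others at -2.22 and -1.86.

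Abcb6 followed at 1.59, Abca1 at -1.45, Abcb4 at -1.32, Abcc2 at -1.16, Abcd3 at -1.07, Abcb8 at -0.87 and Abcd4 at -0.46. Abcc12, Abcc4, Abca4, Abca8a, Abcf1 and Abce1 differed by 0.9, 0.85, 0.8, 0.58, 0.46 and 0.41, and with spike-in scaling they became -0.1, -0.15, -0.2, -0.42, -0.54 and -0.59. Abcc3 (0.8), Abcg2 (0.69) and Abcg1 (-0.24) were not called. Of these 21 calls 16 were kept in each fit without 1 array, and those lost in some were Abca8a, Abcc12, Abcd4, Abce1 and Abcf1 (highest adjusted p = 0.106). With slide as a block Abca8a and Abcd4 lost their calls and the other 19 kept theirs. Normexp correction left the calls of Abca2, Abcb10, Abcb9 and Abcc1, where 2.9% of all genes were called. Of 19 heme genes 15 were higher and 1 lower, led by Alas2 (7.46), Slc25a37 (3.79) and Cpox (3.72).

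Of the sterol partners 7 of 18 were higher and 5 lower, led by Rxra (-1.64), Insig1 (1.28) and Mylip (1.24). Of the glutathione partners 2 of 13 were higher and 4 lower, led by Nqo1 (-1.78), Hif1a (-1.67) and Gss (1.36). Of the peroxisome partners 3 of 12 were higher and 4 lower, led by Pex13 (-1.37), Acot8 (1) and Hsd17b4 (-0.88), and of the ribosome recycling partners 8 of 12 were higher and 3 lower, led by Eif2ak4 (-1.25), Eif3j1 (1.04) and Eif5 (1.02). Mast cell markers were lower in 8 of 8 and erythroid markers higher in 9 of 9, and their part in the differences was not tested.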

How the data were processed

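Feature Extraction 10.1.1.1 (sets 1 and 2) and 10.7.1.1 (set 3) made the scanner files, per the file headers. Their deposited values are spot intensity on a linear scale. The authors' deposited value table holds log2 values, with scale and centring unknown. RefSeq accessions (GRCm38.p6 table) named 27071 of 41174 probes. The log2 processed signal was centred on each array's 75th percentile over non-control probes, uneven or outlying spots (48 to 446 per array) were dropped, and the remaining spots were averaged by probe. At least 0.5 of its spots had to be well above background for a probe to count as such. Genes above background on every array of at least 1 group, with at least 2 measured arrays per group, were fitted set by set in R 4.3.3 with limma 3.58.1 (2-sided moderated tests after lmFit and eBayes), with Benjamini-Hochberg adjustment over all genes and calls under 0.05. The steps were tested on simulated data. Each comparison names its called genes, with full statistics for those with the largest differences, and a fixed group of genes by role. Values of 2 ABC genes are not reported here, while counts over the ABC genes include them. Where several probes of a gene disagreed, values of the other probes are given for some leading genes, in the first set only for Abcb1b and Abca3. Of genes with several tested probes and a call, 7 of 16 in Ediff against EryCP repeat had all probes called the same way. It was 4 of 13 for the difference of the Epo responses and 1 of 4 for CD34- CD103- against CD34+ CD103-. For CR Sca1lo against Sca1hi and EryCP against CR Sca1lo it was 0 of 2 each, and for EryCP against Sca1hi 0 of 5. For CD34- CD103- Epo against either fraction it was 0 of 1. The rest had only some probes called, and 0 genes had probes called in both directions. Slide, taken as the batch, was left out of the main fit and entered only as a block in an alternative. The ABC genes and all lists were chosen with earlier results of these data known. Alternatives were normexp correction (on the median signal), quantile and spike-in scaling, no filter, slide as a block, the value table, and leaving out each array. Groups of 3 or 4 arrays limit the precision. Figures used matplotlib 3.10.9 in Python 3.11.15.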

Additional observations from a re-analysis of the deposited data

Results flagged for a closer look

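Single arrays stood apart from the other 3 of their group in 6 of the 98 sets of 4 levels examined, and chance gives about 1 in 20. In CD34+ CD103- these were Abcb1a at -3.12 (others -8.65 to -8.17), Abcb5 at -7.54 (others -8.97 to -8.76), Abcb10 at -0.36 (others -0.56 to -0.55), Abcf1 at 4.34 (others 4.12 to 4.15) and Abcf3 at 0.24 (others -0.02 to 0). In CD34- CD103- it was Abcb10 at 0.06 (others -0.22 to -0.21).

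The responses to Epo differed between the starting populations, by the test of the difference itself, for 21 of 42 ABC genes (50% beside 37.8% of all genes). The difference was positive for Abcb10 (2.49), Abcc5 (2.26), Abcg4 (2.21), Abca3 (2.04), Abcb9 (1.95), Abcb6 (1.59), Abcc12 (0.9), Abcc4 (0.85), Abca4 (0.8), Abca8a (0.58), Abcf1 (0.46) and Abce1 (0.41). It was negative for Abcb1b (-3.66), Abca2 (-2.94), Abcc1 (-2.15), Abca1 (-1.45), Abcb4 (-1.32), Abcc2 (-1.16), Abcd3 (-1.07), Abcb8 (-0.87) and Abcd4 (-0.46). The other probes of Abcb1b were not called. With spike-in scaling the differences of Abcc12, Abcc4, Abca4, Abca8a, Abcf1 and Abce1 turned negative. Population, array set and the EML or EMLe2 title cannot be told apart here.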

How the results depend on the processing

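No paired analysis was possible because the labels give the groups no shared replicate numbers; slide as a block, which matches the fractions of the first set by slide, was fitted instead. The counts of called ABC genes are given in the order CR Sca1lo against Sca1hi (5), EryCP against CR Sca1lo (4) and EryCP against Sca1hi (6). They became 0, 0 and 0 with normexp background correction, 1, 1 and 2 with spike-in scaling and 13, 18 and 15 with slide as a block. Of all genes, 3.63%, 5.01% and 6.45% were called in the main fit. These shares became 0.00756%, 0.276% and 0.37% with normexp and 0.525%, 1.48% and 2.09% with spike-in scaling. With slide as a block they became 17.9%, 20.2% and 20.9%. Quantile normalization gave 8 for EryCP against CR Sca1lo and 10 against Sca1hi, beside 8.76% and 9.04% of all genes. The authors' deposited values gave 11 and 11, beside 11.3% and 10.9%. With trend and robust, eBayes gave 7 for EryCP against CR Sca1lo, beside 6.23%. Without slide 2, an alternative chosen after seeing the data, CR Sca1lo against Sca1hi kept 3, beside 1.55% of all genes. Normexp gave 1 of 27 for Ediff against EryCP repeat, 3 of 5 for CD34- CD103- Epo against CD34+ CD103- and 4 of 21 for the difference of the Epo responses. The shares of all genes fell there from 56.6%, 5.44% and 37.8% to 0.969%, 3.16% and 2.9%. Spike-in scaling gave 16 against 10 for CD34- CD103- against CD34+ CD103-, beside 37.3% against 12.4% of all genes. It gave 0 against 1 for Epo in CD34- CD103-, where the probe chosen within the set gave 2. The shares of all genes there were 0.731% against 2.54%, and 2.59% with the probe chosen within the set. Leaving out 1 array at a time gave 3 to 5, 2 to 5 and 4 to 7 in the first set, 22 to 33 for Ediff, 5 to 11, 1 to 2 and 2 to 5 in the third set and 15 to 25 for the difference. Over all genes the shares then ran from 1.43% to 3.42%, 2.67% to 4.51% and 3.15% to 5.76% in the first set. For Ediff they ran from 38.6% to 66.9% and for the difference from 31% to 47%. In the third set they ran from 9.07% to 13.1%, 1.24% to 2.78% and 2.43% to 5.36%. Signs turned in Ediff against EryCP repeat with normexp for Abca1 (0.02), Abca7 (-0.01) and Abcc2 (0.23), with quantile normalization for Abca7 (-0.03), and with spike-in scaling for Abca7 (-0.69), Abca8a (-0.54), Abcc12 (-0.14), Abcc3 (-0.1), Abcc4 (-0.01), Abce1 (-0.47), Abcf1 (-0.47), Abcf2 (-0.54), Abcf3 (-0.54) and Abcg8 (-0.36). With spike-in scaling Abcc5 in CD34- CD103- against CD34+ CD103- turned to -0.03, and so did the differences of the Epo responses of Abca4 (-0.2), Abca8a (-0.42), Abcc12 (-0.1), Abcc4 (-0.15), Abce1 (-0.59) and Abcf1 (-0.54), while the deposited value table gave -0.36 for Abca4. Spike-in scaling shifts all genes of an array together, and the cause of the other changes was not tested. Of 78 called gene results, 76 kept direction and call with slide as a block, 71 without the filter, 69 in the value table, 64 with quantile normalization, 42 with spike-in scaling and 15 with normexp. Probes near background limit Abcb1a, Abcb5, Abca15 and Abcc10.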

Other observations

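ABC family genes with other symbols moved too. Tap1, which loads peptides for antigen presentation, was lower by 1.61 in Ediff against EryCP repeat, by 1.2 in EryCP against Sca1hi and by 0.62 in CD34- CD103- against CD34+ CD103-. Its partner Tap2 was lower by 1.36 in Ediff, and Cftr, a chloride channel of the same family, was higher by 1.17 there (limma adjusted p = 0.000475 and 0.0262).

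EryCP cells were measured in the first set and again in the second, so that array set and culture cannot be told apart. Side by side, without a test, Abcb1b was -0.49 ± 0.18 and -1.35 ± 0.23, Abcb4 -0.61 ± 0.1 and -1.58 ± 0.24, Abcg1 -0.63 ± 0.24 and 0.22 ± 0.19, and Abcf1 3.52 ± 0.12 and 4.68 ± 0.18 (SD, n = 3 each). Abcb10 was 0.75 ± 0.13 and 0.69 ± 0.05, and Abca4 -5.67 ± 0.12 and -5.87 ± 0.13.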
